A study of Mus musculus with 12 samples.

Results

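ZBTB proteins are transcription factors that pair an N-terminal BTB domain with C-terminal C2H2 zinc fingers. The BTB domain holds the proteins in dimers and recruits co-repressor complexes with their histone deacetylases, or the ubiquitin ligase scaffold CUL3, while the zinc fingers read DNA. In the thymus the family is known for ThPOK (Zbtb7b), which directs thymocytes to the CD4 helper lineage, and for PLZF (Zbtb16), which directs innate-like T cells. The genes described here are the other members: every row of the expression table whose symbol is Zbtb, a number and at most a letter a, b or c, without Zbtb7b and Zbtb16. There were 35 such genes among 23234 features. Zbtb8os, which lies beside Zbtb8a but encodes no ZBTB protein, was not among them.

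RNA-seq had been performed on 12 libraries of C57BL/6 CD4+CD8+ thymocytes sorted as CD24hiTCRβlo, the stage before positive selection. 5 libraries came from wild-type newborn mice and 3 from newborn Bcl11bm/m mice, which carry in all cells a frameshift allele that encodes Bcl11b without its last zinc finger. The other 4 were labelled Bcl11bfl/fl:Cd4-Cre: there, Cre under Cd4 regulatory sequences deletes floxed Bcl11b once Cd4 is expressed. The age of these mice is not in the labels. The description fields attached to the libraries name Bcl11bm/m for the libraries titled wild-type and Bcl11b+/+ for those titled as conditional knockout, and the groups follow the titles. The sources also differ on the library kit. Nothing states that each library was a separate mouse, so p-values measure the spread between libraries, which may in part be technical.

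Expression is given as FPKM, the fragments mapped to a gene scaled by its transcript length and by the mapped fragments of the library. For the targeted gene, Bcl11b, wild-type libraries 1 to 5 gave 132, 286, 292, 158 and 223 FPKM. Bcl11bm/m libraries 1 to 3 gave 430, 434 and 482, and Bcl11bfl/fl:Cd4-Cre libraries 1 to 4 gave 127, 140, 136 and 115. As alleles and exons are not told apart in these values, they do not test the deletion. Estimated depth was 3960000 to 6930000 fragments for wild-type, 2720000 to 4220000 for Bcl11bm/m, and for Bcl11bfl/fl:Cd4-Cre 10800000 to 45420000. Depth therefore cannot be told apart from the Bcl11bfl/fl:Cd4-Cre genotype, nor can age. All 10 pre-selection thymocyte markers on a list (such as Cd4, Cd8a and Rag1) reached a mean of 1 FPKM in each group. Wild-type replicate 1 stood apart, with Xist at 0.0527 FPKM and Y-linked genes summing to 0.1 FPKM, whereas each of the other 11 libraries had either Xist at 73.0 FPKM or more or Y-linked genes at 69.4 FPKM or more. Libraries with Xist and with Y-linked transcripts numbered 2 and 2 in wild-type, 1 and 2 in Bcl11bm/m and 3 and 1 in Bcl11bfl/fl:Cd4-Cre. No group therefore came from a single mouse, and the mix of sexes differed between groups.

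Most of the family was transcribed in pre-selection thymocytes. With a mean of at least 1 FPKM counted as expressed, 29 of the 35 members (82.9%) were expressed in wild-type, 31 (88.6%) in Bcl11bm/m and 29 (82.9%) in Bcl11bfl/fl:Cd4-Cre thymocytes. Over all 23234 features the shares were 45.3%, 46.5% and 45.7%. Levels were moderate: the median of the expressed members was 7.95 FPKM in wild-type, 7.63 in Bcl11bm/m and 8.56 in Bcl11bfl/fl:Cd4-Cre thymocytes, beside 13.2, 12.8 and 12.1 FPKM over all features expressed. Summed over the 35 members, expression was 265 to 306 FPKM in wild-type, 307.5 to 331 in Bcl11bm/m libraries, with Bcl11bfl/fl:Cd4-Cre at 281.9 to 315.5. Since the sum is of bulk samples, fewer cells of a type and less RNA per cell cannot be told apart here or in any value that follows.

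**Figure D1:**
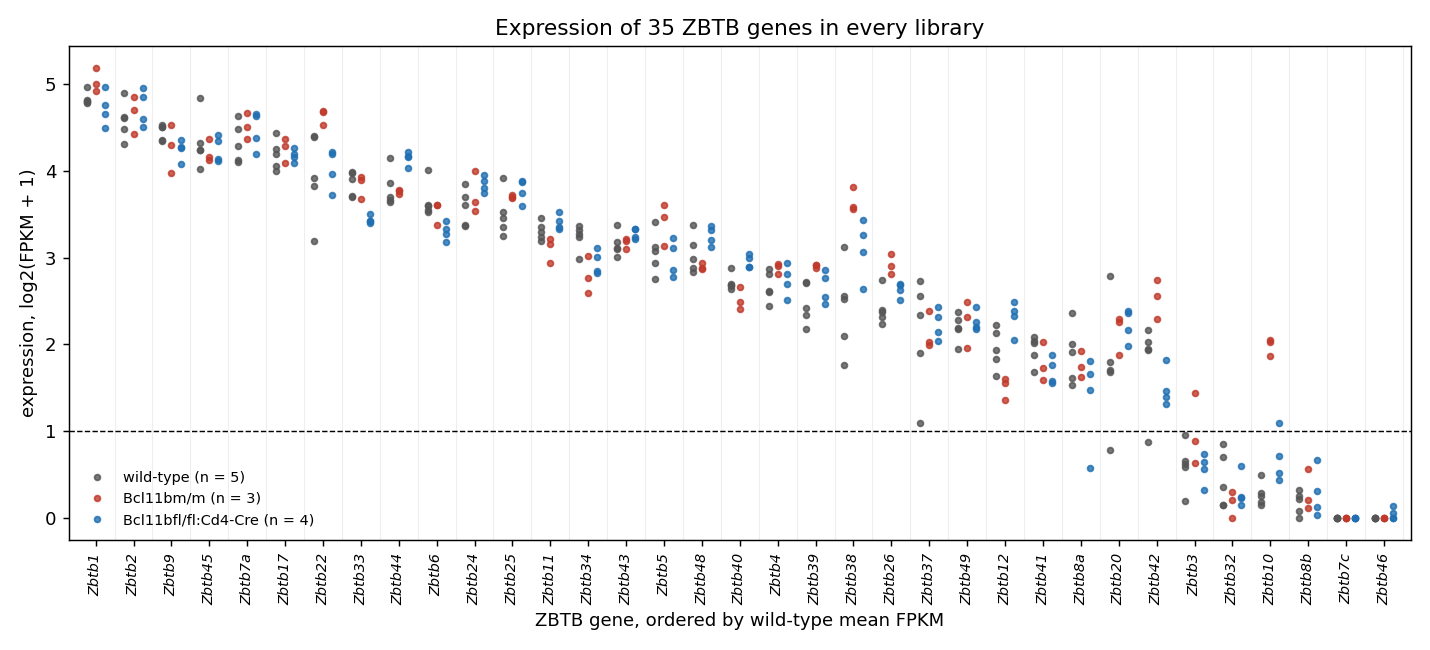
Expression of the 35 ZBTB genes, as log2(FPKM + 1) on the vertical axis, ordered by wild-type mean, with a point for each library (grey wild-type, n = 5; red Bcl11bm/m, n = 3; blue Bcl11bfl/fl:Cd4-Cre, n = 4). The dashed line lies at 1 FPKM; 29 genes have a wild-type mean above it, and the red points of Zbtb10 sit at 2.64 to 3.16 FPKM while its grey points stay at or below 0.401 FPKM.

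In wild-type thymocytes 12 members had a mean of at least 10 FPKM. Zbtb1, a regulator of lymphoid development, had the highest mean at 27.6 ± 1.57 FPKM (SD, n = 5) and was followed by Zbtb2 at 23.2 ± 3.66, Zbtb9 at 20.9 ± 1.36, Zbtb45 at 19.5 ± 4.71 and Zbtb7a at 19.3 ± 3.27 FPKM. Zbtb7a encodes LRF, a close relative of ThPOK. The wild-type range of Zbtb1, 26.6 to 30.4 FPKM, lay above those of Zbtb9 and Zbtb7a and overlapped those of Zbtb2 (to 28.8 FPKM) and Zbtb45 (to 27.6 FPKM), although Zbtb1 exceeded Zbtb2 within each wild-type library. The ranges of Zbtb2, Zbtb9, Zbtb45 and Zbtb7a overlapped each other, so the order of these 4 lies within the spread between libraries. Zbtb17, which encodes the Myc partner Miz-1, had 17.4 ± 2.24 FPKM. The remaining members at this level were Zbtb22 (15.1 FPKM), Zbtb33 (13.6), Zbtb44 (13.1), Zbtb6 (11.7), Zbtb24 (11.1) and Zbtb25 (10.4).

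A further 17 members lay between 2.62 and 8.91 FPKM on average in wild-type, from Zbtb11 at the top to Zbtb42 at the bottom. They were Zbtb4, Zbtb5, Zbtb8a, Zbtb11, Zbtb12, Zbtb20, Zbtb26, Zbtb34, Zbtb37, Zbtb38, Zbtb39, Zbtb40, Zbtb41, Zbtb42, Zbtb43, Zbtb48 and Zbtb49. The spread between wild-type libraries was uneven. For 20 of the 30 members tested below, the coefficient of variation was under 20%, whereas Zbtb20, a regulator of plasma cells, ranged from 0.719 to 5.90 FPKM and Zbtb37 from 1.13 to 5.62 FPKM. The median coefficient of variation over the 30 members was 16.9% in wild-type, 10.8% in Bcl11bm/m and 12.6% in Bcl11bfl/fl:Cd4-Cre libraries, against 21.6%, 14.9% and 14.9% over the 10780 features tested.

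6 members were below 1 FPKM on average in wild-type thymocytes. Zbtb7c, the other LRF relative, was listed at 0 in all 12 libraries, and Zbtb46, a gene of classical dendritic cells, was listed at 0 in every wild-type and Bcl11bm/m library and reached at most 0.0959 FPKM in a Bcl11bfl/fl:Cd4-Cre library. Zbtb32, a repressor that acts on GATA factors in T cells, stayed between 0 and 0.797 FPKM, and Zbtb8b between 0 and 0.584 FPKM. Zbtb3 was next below the limit, at 0.54 ± 0.283 FPKM in wild-type with no library above 0.943 FPKM, and reached 1.03 ± 0.60 FPKM in Bcl11bm/m through replicate 1 at 1.71 FPKM. Zbtb10, at 0.209 FPKM in wild-type, was the remaining member below the limit. The related pairs thus differed within themselves, with Zbtb7a and Zbtb8a expressed and Zbtb7c and Zbtb8b not.

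Whether Bcl11b mutation changed the family was asked in 3 comparisons by limma on log2(FPKM + 1). Of the 35 members, 30 averaged at least 1 FPKM across the 12 libraries and so passed the filter. Zbtb3, Zbtb7c, Zbtb8b, Zbtb32 and Zbtb46 did not. A difference was called at an adjusted p under 0.05 over all 10780 features tested.

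In Bcl11bm/m thymocytes 3 of the 30 members rose, namely Zbtb10, Zbtb38 and Zbtb26, and none was called lower with the settings reported. That is 10% of the members, beside 17.3% of all features tested (9.92% higher and 7.39% lower). The count includes Zbtb10, which passed the filter only through its Bcl11bm/m values. At an unadjusted p under 0.05, 6 members were higher and 2 lower. Zbtb38 and Zbtb26 were not called once any Bcl11bm/m library was left out. Other members were called under some alternatives. Higher were Zbtb22 under median-ratio scaling, quantile normalization or library weights (adjusted p of 0.0123 to 0.0449) and Zbtb42 under library weights and without wild-type replicate 1 (adjusted p of 0.0261 and 0.0422). Lower were Zbtb34 with all 3 groups in 1 fit, under median-ratio scaling, quantile normalization or library weights and without wild-type replicate 1 (adjusted p of 0.00477 to 0.0353), and Zbtb12 under quantile normalization or library weights and without wild-type replicate 4 (adjusted p of 0.0107 to 0.0434). The median difference of the 30 members was 0.06 on the log2 scale, against -0.021 over all features, and the median size of the difference was 0.193 against 0.267. The Bcl11bm/m and wild-type libraries did not overlap for 7 members (23.3%, beside 25.4% of all features), namely higher for Zbtb10, Zbtb22, Zbtb26, Zbtb38, Zbtb39 and Zbtb42 and lower for Zbtb12.

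Zbtb10, known as a repressor of Sp-family transcription factor genes, lies on chromosome 3 from 9250602 to 9285333 (NCBIM37, plus strand). The 5 wild-type libraries gave 0.106, 0.401, 0.216, 0.185 and 0.136 FPKM in order of replicate, and the 3 Bcl11bm/m libraries 3.16, 3.08 and 2.64. The 4 Bcl11bfl/fl:Cd4-Cre libraries had 0.349, 0.427, 1.13 and 0.635 FPKM. Every Bcl11bm/m library lay above every other library, and the Bcl11bfl/fl:Cd4-Cre libraries overlapped the wild-type range. The difference between Bcl11bm/m and wild-type was 1.71 on the log2(FPKM + 1) scale (standard error 0.105, adjusted p = 3.12e-05), and the ratio of the mean FPKM was 14.2. Against wild-type the Bcl11bfl/fl:Cd4-Cre libraries differed by 0.42, which was not called (adjusted p = 0.135). Zbtb10 passed the filter, with a mean of 1.04 FPKM over the 12 libraries, only through its Bcl11bm/m values, so it had to differ once tested. The values rest on an estimated 5.3 to 17.7 fragments in wild-type and 61.9 to 90.7 fragments in Bcl11bm/m libraries.

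Zbtb38 encodes a protein that binds methylated CpG and lies on chromosome 9 from 96583182 to 96653250 (NCBIM37, minus strand). Wild-type libraries 1 to 5 reached 3.29, 4.74, 4.90, 2.38 and 7.69 FPKM, whereas Bcl11bm/m libraries 1 to 3 reached 10.81, 10.96 and 13.11. Those of Bcl11bfl/fl:Cd4-Cre had 7.35, 5.24, 8.57 and 9.78 FPKM, below every Bcl11bm/m library and overlapping the highest wild-type library. The increase in Bcl11bm/m was 1.24 (standard error 0.284, adjusted p = 0.0193), a ratio of means of 2.53. In Bcl11bfl/fl:Cd4-Cre thymocytes the difference from wild-type was 0.69 with a 95% confidence interval of 0.09 to 1.28 (adjusted p = 0.114). The difference between the mutants, 0.56, was not called either (adjusted p = 0.113). The call in Bcl11bm/m was lost without any single Bcl11bm/m library (adjusted p = 0.0553, 0.0654 and 0.0723 without replicates 1, 2 and 3). The annotation places E030011O05Rik wholly inside the gene on the same strand (5447 bases), and reads there could be split between both.

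RefSeq gives Zbtb38 alternative starts, and the values per gene do not separate them. Their promoters are shown because Zbtb38 had the largest difference called against wild-type among members with a promoter entry, each from 250 bases before to 50 after a start, 5′ to 3′. The windows hold 8, 41 and 25 CpG dinucleotides in the order printed, beside a median of 26 over 37 promoters of 31 members and of 7 over 32851 promoters in all. Capitals would mark the Runx motif ACCACA or ACCGCA or the Kaiso motif TCCTGCNA on either strand, and none of these letters occurs in the windows of Zbtb38.
Zbtb38 start a (chr9:96731626-96731925, minus strand, GRCm38.p6): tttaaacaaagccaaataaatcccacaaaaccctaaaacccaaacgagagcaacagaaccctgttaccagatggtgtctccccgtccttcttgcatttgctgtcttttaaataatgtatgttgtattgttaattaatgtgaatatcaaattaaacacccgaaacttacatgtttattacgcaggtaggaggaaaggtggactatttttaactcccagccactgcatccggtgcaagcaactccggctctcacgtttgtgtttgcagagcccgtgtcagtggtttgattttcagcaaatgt
Zbtb38 start b (chr9:96719801-96720100, minus strand, GRCm38.p6): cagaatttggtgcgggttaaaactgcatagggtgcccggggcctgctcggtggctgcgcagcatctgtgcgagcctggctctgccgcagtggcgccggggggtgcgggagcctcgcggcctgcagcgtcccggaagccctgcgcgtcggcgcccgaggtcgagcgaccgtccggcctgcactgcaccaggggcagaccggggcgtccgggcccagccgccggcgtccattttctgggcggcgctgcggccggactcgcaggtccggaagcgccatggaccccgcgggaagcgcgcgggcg
Zbtb38 start c (chr9:96719396-96719695, minus strand, GRCm38.p6): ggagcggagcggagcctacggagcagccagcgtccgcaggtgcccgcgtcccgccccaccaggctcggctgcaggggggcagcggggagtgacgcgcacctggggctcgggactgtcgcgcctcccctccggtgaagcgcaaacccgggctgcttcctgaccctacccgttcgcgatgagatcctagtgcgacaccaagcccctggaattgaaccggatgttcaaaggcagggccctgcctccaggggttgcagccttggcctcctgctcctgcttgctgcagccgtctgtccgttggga

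Zbtb26 rose in Bcl11bm/m thymocytes by less. It lies on chromosome 2 from 37287688 to 37298641 (NCBIM37, minus strand). In order of replicate, wild-type libraries had 3.97, 5.71, 3.71, 4.19 and 4.25 FPKM and Bcl11bm/m libraries 7.21, 6.50 and 6.01. The Bcl11bfl/fl:Cd4-Cre libraries gave 5.49, 5.15, 4.70 and 5.43 FPKM, between the Bcl11bm/m libraries and most wild-type libraries. The increase was 0.51 (standard error 0.148, adjusted p = 0.0494), a ratio of means of 1.51. The call was lost when any single library other than wild-type replicate 2 was left out (adjusted p of 0.0642 to 0.156). Its annotated gene lies wholly within that of Zbtb6 on the same strand, with 10954 shared bases, so the split of reads between both is uncertain. Zbtb6 had 11.7 ± 1.89 FPKM in wild-type and 10.6 ± 1.05 FPKM in Bcl11bm/m thymocytes, a difference of -0.13 (adjusted p = 0.605).

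The promoter of Zbtb26 holds the Runx letters ACCACA, in capitals below, and 24 CpG dinucleotides. Runx factors act beside Bcl11b in thymocytes. Their motif ACCACA or ACCGCA on either strand occurred in 10 of the 37 members' promoters (27.0%), beside 22.4% of all 32851 promoters, and the Kaiso motif in 1 of 37 (2.7%), that of Zbtb37, beside 4.96%. The match is a description of letters and not a test of binding.
Zbtb26 (chr2:37443123-37443422, minus strand, GRCm38.p6): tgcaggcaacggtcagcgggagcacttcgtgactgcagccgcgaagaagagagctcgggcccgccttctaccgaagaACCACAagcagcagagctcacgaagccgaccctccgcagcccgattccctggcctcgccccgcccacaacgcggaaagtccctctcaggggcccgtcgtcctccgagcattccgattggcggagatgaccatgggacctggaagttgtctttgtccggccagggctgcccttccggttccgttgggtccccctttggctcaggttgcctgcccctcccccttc

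The other members near these in Bcl11bm/m thymocytes were not called. Zbtb42 differed from wild-type by 0.74 (adjusted p = 0.127), Zbtb22 by 0.68 (adjusted p = 0.126) and Zbtb39 by 0.43 (adjusted p = 0.101). Zbtb34 and Zbtb12 each differed by -0.45 (adjusted p = 0.0736 and 0.0932). For Zbtb34 the values were 6.92 to 9.32 FPKM in wild-type and 5.01 to 7.08 FPKM in Bcl11bm/m libraries. For 19 other members the 95% confidence interval of the difference stayed within 0.6 of 0. Zbtb20, Zbtb37 and Zbtb5 had wider intervals, to 1.26, 0.82 and 0.76 at the upper end.

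In Bcl11bfl/fl:Cd4-Cre thymocytes Zbtb33 fell and no other member was called. That is 1 of 30 members (3.33%), beside 14.5% of all features tested (4.65% higher and 9.86% lower). The median difference of the members was 0.11, against -0.091 over all features, with a median size of 0.213 against 0.254, and 8 members had an unadjusted p under 0.05. Median-ratio scaling turned 501 higher and 1063 lower calls over all features into 850 and 946. The libraries of the groups did not overlap for 3 members (10%, beside 16.1% of all features): higher for Zbtb40 and lower for Zbtb6 and Zbtb33. No member was called without wild-type replicate 2, 3 or 5 or Bcl11bfl/fl:Cd4-Cre replicate 1, 3 or 4. In these fits 700 to 1047 of all features were called in place of 1564.

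Zbtb33 encodes Kaiso, which binds methylated CpG and the motif named above, and lies on the X chromosome from 35542970 to 35550223 (NCBIM37, plus strand). Levels in FPKM were 12.13, 13.99, 14.92, 12.02 and 14.70 for wild-type libraries 1 to 5 and 13.9, 11.8 and 14.3 for Bcl11bm/m libraries 1 to 3. In Bcl11bfl/fl:Cd4-Cre they were 9.71, 10.3, 9.52 and 9.70 FPKM, each below all 8 other libraries. The difference from wild-type was -0.42 (standard error 0.106, adjusted p = 0.0273), a ratio of means of 0.725. In Bcl11bm/m the difference from wild-type was -0.02 (95% confidence interval -0.31 to 0.26, adjusted p = 0.925), and that between the mutants lay just outside the threshold (0.40, adjusted p = 0.0503). Among libraries with Xist, Zbtb33 was 14.0 and 14.9 FPKM in wild-type and 9.52 to 10.3 FPKM in 3 Bcl11bfl/fl:Cd4-Cre libraries. Among those with Y-linked transcripts it was 12.02 and 14.70 FPKM in wild-type and 9.70 FPKM in the single Bcl11bfl/fl:Cd4-Cre library. With Xist as a covariate, chosen after the data were seen, the difference was -0.46 (adjusted p = 0.0401). The call was lost under median-ratio scaling of the libraries (-0.32, adjusted p = 0.0766), which moved the median of all features from -0.091 to 0.009, and in 6 of the 9 fits that left out a library.

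Zbtb33 is shown with its promoter because it was the single member called in Bcl11bfl/fl:Cd4-Cre thymocytes. The window holds 34 CpG dinucleotides and no Runx or Kaiso letters as defined above.
Zbtb33 (chrX:38189543-38189842, plus strand, GRCm38.p6): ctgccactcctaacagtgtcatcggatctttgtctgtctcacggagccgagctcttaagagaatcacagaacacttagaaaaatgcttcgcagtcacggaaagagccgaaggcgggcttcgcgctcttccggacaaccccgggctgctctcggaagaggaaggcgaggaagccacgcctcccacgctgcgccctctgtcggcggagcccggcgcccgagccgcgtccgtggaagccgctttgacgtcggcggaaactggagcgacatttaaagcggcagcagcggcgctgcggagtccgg

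The members that missed the threshold in Bcl11bfl/fl:Cd4-Cre thymocytes included Zbtb6, at 10.6 to 15.1 FPKM in wild-type and 8.08 to 9.76 FPKM in Bcl11bfl/fl:Cd4-Cre libraries (-0.36, adjusted p = 0.0885). Zbtb44 differed by 0.35 (adjusted p = 0.0953), Zbtb12 by 0.36 (adjusted p = 0.152), Zbtb40 by 0.24 (adjusted p = 0.151) and Zbtb34 by -0.29 (adjusted p = 0.133). Under library weights, besides Zbtb33, Zbtb40 (0.255, adjusted p = 0.0435) and Zbtb44 (0.41, adjusted p = 0.00974) were called higher. Zbtb34 (-0.293, adjusted p = 0.0435) and Zbtb42 (-0.572, adjusted p = 0.0305) were called lower there. Without wild-type replicate 1, the library that stood apart, 4 members were called in place of 1, as calls over all features went from 1564 to 2678: Zbtb33 and Zbtb34 (-0.35, adjusted p = 0.0383) and Zbtb42 (-0.53, adjusted p = 0.0285) were lower and Zbtb44 (0.43, adjusted p = 0.0142) was higher. Zbtb24, mutated in the ICF immunodeficiency syndrome and required for DNA methylation at some repeats, differed by 0.27 (adjusted p = 0.187) and was called higher under median-ratio scaling (0.37, adjusted p = 0.0394).

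**Figure D2:**
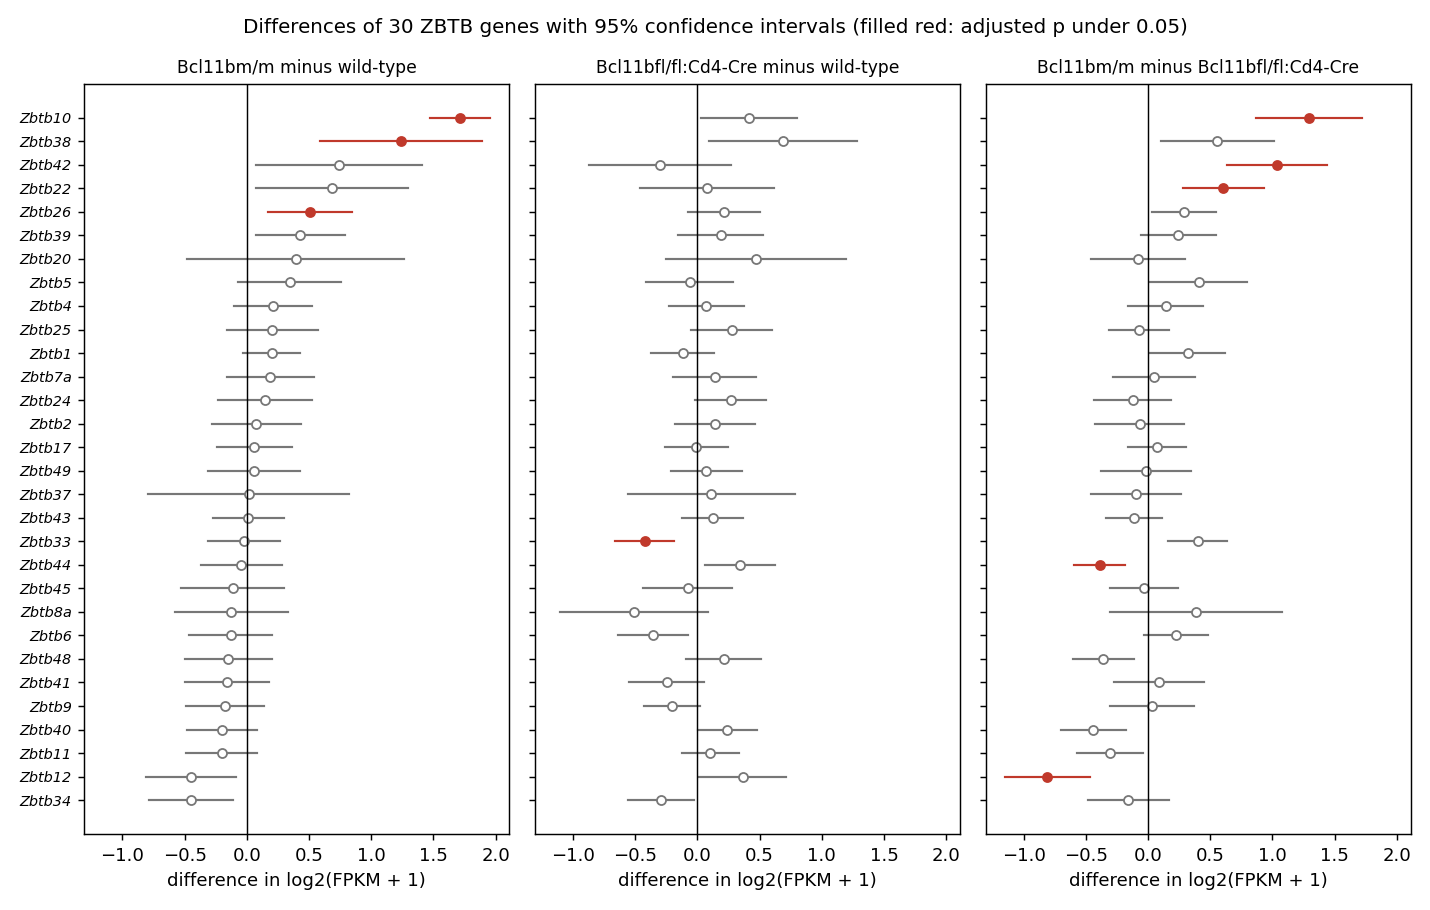
Differences in log2(FPKM + 1) of the 30 ZBTB genes tested, with 95% confidence intervals by limma, for Bcl11bm/m minus wild-type, Bcl11bfl/fl:Cd4-Cre minus wild-type and Bcl11bm/m minus Bcl11bfl/fl:Cd4-Cre, ordered by the left panel. Filled red points passed an adjusted p of 0.05: 3 genes in the left panel, Zbtb33 in the middle panel and 5 genes in the right panel.

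In the direct comparison of the mutants 5 of the 30 members were called (16.7%, beside 10.2% of all features tested, 7.63% higher and 2.6% lower in Bcl11bm/m): Zbtb10, Zbtb42 and Zbtb22 were higher and Zbtb12 and Zbtb44 lower in Bcl11bm/m thymocytes. Zbtb10 is again counted although it passed the filter only through its Bcl11bm/m values. The libraries of the mutants did not overlap for 12 members (40%, beside 26.7% of all features), 7 higher and 5 lower in Bcl11bm/m, and 13 members had an unadjusted p under 0.05. The count of calls was 3 without Bcl11bm/m replicate 1 or Bcl11bfl/fl:Cd4-Cre replicate 1 or 2, and 1 without Bcl11bm/m replicate 2 or 3. Over all features, 1102 calls became at most 807 in the former fits, and 327 and 313 in the latter. The median difference was 0.04, against 0.091 over all features. Under median-ratio scaling, as under quantile normalization, 6 members were called, 2 higher and 4 lower, and over all features 822 higher and 280 lower calls became 597 higher and 497 lower under median-ratio scaling.

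For Zbtb10 the difference between the mutants was 1.30 (standard error 0.182, adjusted p = 0.00946), a ratio of means of 4.65. Here too it was among the features tested only because of its Bcl11bm/m values.

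Zbtb42, a close relative of the repressor Zfp238, lies on chromosome 12 from 113917039 to 113920958 (NCBIM37, plus strand). Levels in FPKM were 3.90, 4.88 and 5.69 for Bcl11bm/m libraries 1 to 3 and 1.48, 1.75, 2.52 and 1.62 for Bcl11bfl/fl:Cd4-Cre libraries 1 to 4. Wild-type was at 0.833, 3.50, 3.06, 2.83 and 2.86 FPKM, so that 4 of 5 wild-type libraries lay between the mutants. The difference between the mutants was 1.04 (standard error 0.172, adjusted p = 0.0152). The call was lost without Bcl11bm/m replicate 2 or 3 (adjusted p = 0.0587 and 0.0609).

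Zbtb22 lies in the major histocompatibility complex on chromosome 17 from 34052849 to 34056269 (NCBIM37, plus strand). Bcl11bm/m libraries 1 to 3 reached 22.0, 24.8 and 24.6 FPKM, and Bcl11bfl/fl:Cd4-Cre libraries 1 to 4 reached 14.6, 12.3, 17.3 and 17.6. The wild-type libraries had 8.13, 13.2, 14.2, 19.99 and 20.10 FPKM, all below the Bcl11bm/m libraries. The difference between the mutants was 0.61 (standard error 0.139, adjusted p = 0.0381), and it was called in 5 of 16 alternatives (adjusted p of 0.0107 to 0.156), with 2 of these among the 7 fits that left out a library. The gene lies wholly within the annotated span of Tapbp on the same strand, so reads could be split between both.

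Zbtb12, also on chromosome 17, from 35016428 to 35033787 (NCBIM37, plus strand), had the opposite pattern. In order of replicate, Bcl11bm/m libraries had 1.57, 1.93 and 2.03 FPKM, against 3.13, 4.63, 4.01 and 4.24 for Bcl11bfl/fl:Cd4-Cre. Wild-type libraries 1 to 5 showed 2.55, 3.37, 3.68, 2.09 and 2.82 FPKM and lay above all Bcl11bm/m libraries. The difference between the mutants was -0.81 (standard error 0.145, adjusted p = 0.0187). Its annotated span overlaps C2 on the opposite strand by 17360 bases, and the Bcl11bm/m values rest on an estimated 7.0 to 14.0 fragments. The call was lost without Bcl11bm/m replicate 2 or 3 (adjusted p = 0.0615 and 0.0584) and without a filter on low values (adjusted p = 0.0521).

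Zbtb44, on chromosome 9 from 30838229 to 30883464 (NCBIM37, plus strand), had 12.7, 12.3 and 12.7 FPKM in Bcl11bm/m replicates 1 to 3. For Bcl11bfl/fl:Cd4-Cre, libraries 1 to 4 gave 17.6, 16.9, 17.1 and 15.3 FPKM. In wild-type replicates 1 to 5 it had 16.7, 11.6, 13.5, 11.5 and 12.003 FPKM, with replicate 1 alone within the Bcl11bfl/fl:Cd4-Cre range. The difference between the mutants was -0.39 (standard error 0.088, adjusted p = 0.0358), and it was lost in 6 of 7 fits that left out a library. Zbtb40 (-0.44, adjusted p = 0.0509) and Zbtb48, which encodes the telomere-binding protein TZAP (-0.36, adjusted p = 0.0722), lay outside the threshold and were called lower in Bcl11bm/m under median-ratio scaling (adjusted p = 0.0374 and 0.0487).

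**Figure D3:**
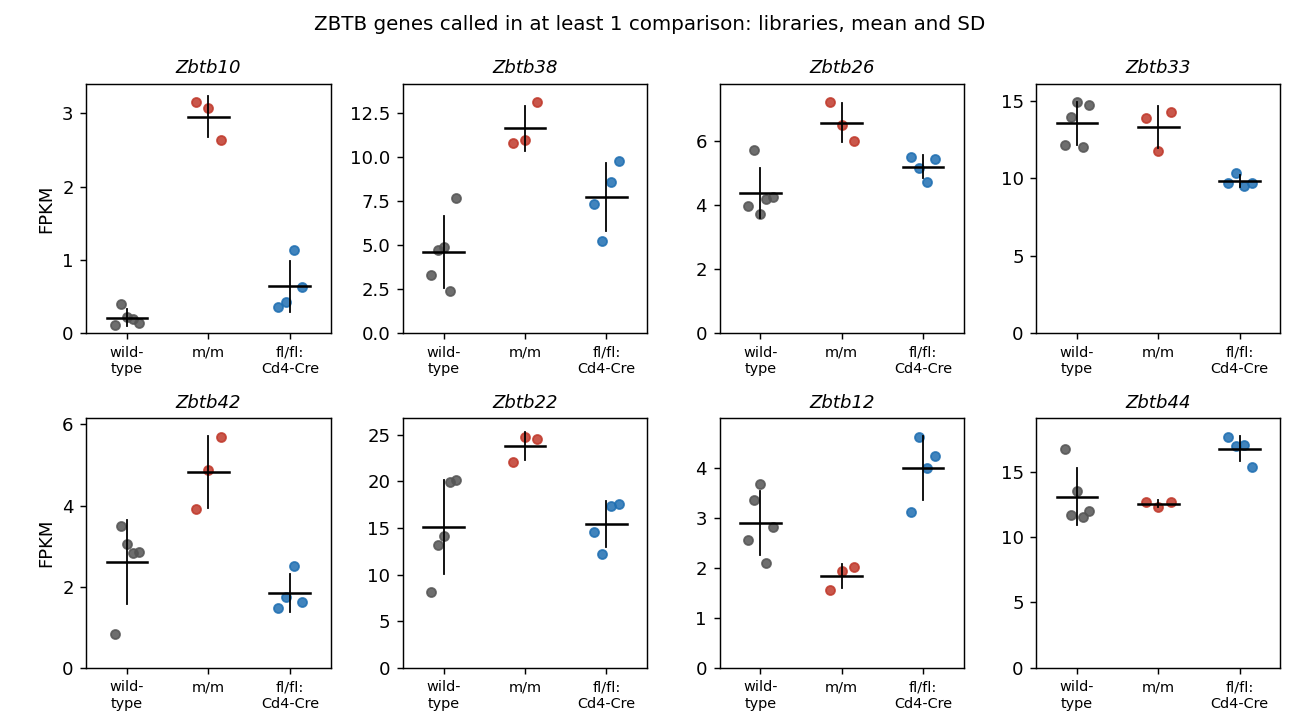
FPKM of the 8 ZBTB genes called in at least 1 comparison, with a point for each wild-type (n = 5), Bcl11bm/m (n = 3) and Bcl11bfl/fl:Cd4-Cre (n = 4) library, a horizontal bar for the mean and a vertical bar for ± 1 SD. Zbtb10 and Zbtb38 are highest in Bcl11bm/m, whereas the Bcl11bfl/fl:Cd4-Cre points of Zbtb33, at 9.52 to 10.3 FPKM, lie below all others.

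By role, 8 members were linked to lymphocyte or blood cell development (Zbtb1, Zbtb7a, Zbtb17, Zbtb20, Zbtb24, Zbtb25, Zbtb32 and Zbtb46). With the settings reported, the 6 of them tested gave no call by limma in any comparison. Zbtb24 was called higher in Bcl11bfl/fl:Cd4-Cre than in wild-type under median-ratio scaling and quantile normalization (adjusted p = 0.0394 and 0.0454). Of all features 17.3%, 14.5% and 10.2% were called, shares at which these 6 genes would hold few calls or none. The unadjusted p was under 0.05 once among them, for Zbtb1 between the mutants (difference 0.32, adjusted p = 0.156). Zbtb1 was 27.6 FPKM in wild-type, 31.9 in Bcl11bm/m and 25.5 in Bcl11bfl/fl:Cd4-Cre thymocytes. For Zbtb7a the means were 19.3, 21.9 and 21.3 FPKM, with differences from wild-type of 0.19 (adjusted p = 0.459) and 0.14 (adjusted p = 0.569). Thpok itself, outside the set, was at 0 to 0.215 FPKM in wild-type, 41.1 to 50.4 in Bcl11bm/m libraries, with Bcl11bfl/fl:Cd4-Cre at 9.44 to 56.6. Of the methyl-CpG binding members, which were not tested against each other, Zbtb38 was called higher in Bcl11bm/m and Zbtb33 lower in Bcl11bfl/fl:Cd4-Cre against wild-type, and neither was called between the mutants. Zbtb4 had 5.39, 6.37 and 5.71 FPKM in wild-type, Bcl11bm/m and Bcl11bfl/fl:Cd4-Cre with no call.

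The remaining members were not called with the settings reported. Their means are given here for wild-type, Bcl11bm/m and Bcl11bfl/fl:Cd4-Cre in that order. Zbtb2 had 23.2, 24.5 and 25.8 FPKM, Zbtb9 had 20.9, 18.6 and 18.0 FPKM, and Zbtb45 had 19.5, 17.7 and 18.1 FPKM. Zbtb17 had 17.4, 18.1 and 17.1 FPKM, ratios to wild-type of 1.04 and 0.987. In the middle of the family, Zbtb11 had 8.91, 7.63 and 9.65 FPKM, Zbtb43 had 7.95, 7.995 and 8.72 FPKM, and Zbtb5, known as a repressor of the cell cycle inhibitor gene p21, had 7.43, 9.68 and 7.04 FPKM. Among the low members, Zbtb49 had 3.60, 3.82 and 3.82 FPKM, Zbtb37 had 3.67, 3.42 and 3.72 FPKM, and Zbtb41 had 2.86, 2.46 and 2.25 FPKM. Zbtb8a had 2.77, 2.40 and 1.73 FPKM, with Bcl11bfl/fl:Cd4-Cre replicate 3 at 0.488 FPKM beside 1.78 to 2.51 FPKM in the other 3 libraries. None of these differences from wild-type was called by limma, nor had an unadjusted p under 0.05.

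Neighbouring members were also compared. The starts of Zbtb1 and Zbtb25 face away from each other on chromosome 12 with 705 bases between the genes, and neither was called in any comparison. Zbtb34 and Zbtb43 lie on the same strand of chromosome 2 with 18962 bases between them. Against wild-type, Zbtb34 differed by -0.45 in Bcl11bm/m and Zbtb43 by 0.01, neither called.

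Some ZBTB genes stand in the table under other names. Of 13 such symbols 12 were in the table, and 9 passed the filter. The other, Zfp509, is an older name of Zbtb49. In Bcl11bm/m thymocytes 2 of the 9 were called, a share near the 17.3% of all features. Bcl6, a repressor of germinal centre B cells and follicular helper T cells, was the most abundant at 84.2 to 94.7 FPKM in wild-type and fell to 55.6 to 75.3 FPKM in Bcl11bm/m libraries (-0.50, adjusted p = 0.0207). Zfp238, a repressor now named Zbtb18, rose: its range was 44.3 to 58.5 FPKM in wild-type and 72.5 to 80.6 FPKM in Bcl11bm/m libraries (0.53, adjusted p = 0.0137). Neither was called in Bcl11bfl/fl:Cd4-Cre thymocytes (differences of -0.02 and 0.01), nor was any of the other 7, with 1 of the 9 at an unadjusted p under 0.05. Direct comparison of the mutants gave no call by limma for these 9 genes, with 3 at an unadjusted p under 0.05.

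Of 16 co-repressor and CUL3 pathway genes that act with BTB domains, 15 were tested. Hdac2, a histone deacetylase, and Cul3 fell in Bcl11bfl/fl:Cd4-Cre thymocytes, with differences of -0.53 (adjusted p = 0.045) and -0.52 (adjusted p = 0.0312). These 2 of 15 are a share near the 14.5% of all features called in that comparison. None of the 15 was called by limma in Bcl11bm/m, where 1 had an unadjusted p under 0.05, or between the mutants, where 3 had. Ctbp2, which encodes a co-repressor, was the gene of the list under the filter. It was at 1.16 to 1.96 FPKM in Bcl11bm/m, at most 0.202 FPKM in wild-type and 0.128 to 0.160 FPKM in Bcl11bfl/fl:Cd4-Cre libraries, so that the Bcl11bm/m libraries lay above all others, with no test.

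Some markers of other stages and cell types moved with the Bcl11bm/m group. Of all features tested, 17.3% were called in Bcl11bm/m (9.92% higher and 7.39% lower) and 14.5% in Bcl11bfl/fl:Cd4-Cre (4.65% higher and 9.86% lower). On lists this short, 1 call is near such shares. Of the 10 pre-selection thymocyte markers, 6 were lower in Bcl11bm/m than in wild-type, and their summed level was 3760 to 4280 FPKM against 5100 to 6800 FPKM. All 4 tested of 8 early thymocyte markers rose, with a sum of 61.1 to 153 FPKM in Bcl11bm/m, 5.28 to 8.1 in wild-type, and 17.8 to 39.7 for Bcl11bfl/fl:Cd4-Cre, Bcl11a being at 0 in wild-type and Erg at 0 in Bcl11bm/m libraries. Of 9 post-selection markers, 4 rose and 1 fell in Bcl11bm/m, while 4 rose and 2 fell in Bcl11bfl/fl:Cd4-Cre. Among 12 macrophage and dendritic cell markers 3 of 7 tested rose in Bcl11bm/m, with a sum of 94.7 to 170 FPKM against 78.7 to 156 FPKM in wild-type. The 8 NK and innate lymphocyte markers summed to 18.2 to 28.9 FPKM in Bcl11bm/m against 2.51 to 5.8 FPKM in wild-type, with 3 of 3 tested higher, Gzmb at 0 in both, and Ncr1 and Klrd1 at 0 in wild-type. The 6 gamma-delta T cell markers summed to 327 to 420 against 210 to 253 FPKM, with 3 of 6 higher. Of 8 B cell markers, 3 were tested with no call by limma in Bcl11bm/m and 1 at an unadjusted p under 0.05 (sum 9.95 to 39.4 against 15.3 to 22.4 FPKM), and Pax5 was at 0 in wild-type. Of 6 thymic stroma markers 3 were tested, and Epcam was lower in Bcl11bm/m (-1.61, adjusted p = 0.00092) and in Bcl11bfl/fl:Cd4-Cre (-1.18, adjusted p = 0.00814), with sums of 5.2 to 7.39 FPKM in wild-type, 3.81 to 6.92 in Bcl11bm/m and 3.9 to 4.88 for Bcl11bfl/fl:Cd4-Cre, and Foxn1 at 0 in Bcl11bm/m. Of the markers called, Kit, Mpeg1 and Flt3 passed the filter only through their Bcl11bm/m values, so they had to differ once tested. Lyl1, Fcgr3, Klrb1c, Cd163l1, 5830411N06Rik, Maf, Il7r and S1pr1 averaged below 1 FPKM in wild-type and passed only through mutant libraries. Whether other cell types were present, and their part in the values of Zbtb10, Zbtb38 and Zbtb26, was not tested. In Bcl11bfl/fl:Cd4-Cre libraries 1 of the 10 pre-selection markers was lower, Cd24a, and 2 of 4 early markers were higher. There the pre-selection sum was 3530 to 5600 FPKM. The gamma-delta markers 5830411N06Rik and Blk were higher (2 of 6, sum 229 to 393 FPKM), as was the B cell marker Cd79a (1 of 3, sum 12.8 to 29.8 FPKM). Blk passed the filter only through its Bcl11bfl/fl:Cd4-Cre values, and Cd79a averaged below 1 FPKM in wild-type. The macrophage markers Lyz2 and Mpeg1 were lower (2 of 7, sum 86.8 to 119 FPKM, with Cd14 and Clec9a at 0). Of the NK and innate markers Prf1 was lower (1 of 3), while their sum was 2.41 to 34.0 FPKM and Ncr1 was at 0. Whether other cell types were present, and their part in the value of Zbtb33, was not tested.

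Between the mutants, where 10.2% of all features were called (7.63% higher and 2.6% lower in Bcl11bm/m), some markers were also higher in Bcl11bm/m. They were 2 of 4 early thymocyte markers (Il2ra and Kit), 3 of 7 macrophage and dendritic cell markers (Lyz2, Mpeg1 and Flt3), 2 of 3 NK and innate markers (Prf1 and Tyrobp), 1 of 6 gamma-delta markers (Cd163l1) and 1 of 9 post-selection markers (Cd28). Here too Kit, Mpeg1 and Flt3 were tested only through their Bcl11bm/m values. Of 6 erythroid markers 3 were tested and 2 were higher (Hba-a1 and Hbb-b2), with a sum of 10.6 to 29.8 FPKM in Bcl11bm/m and 0.85 to 5.07 FPKM in Bcl11bfl/fl:Cd4-Cre libraries. No pre-selection or B cell marker was called by limma there, with 3 and 1 at an unadjusted p under 0.05. Whether other cell types were present, and their part in the values of Zbtb10, Zbtb42, Zbtb22, Zbtb12 and Zbtb44, was not tested.

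**Figure D4:**
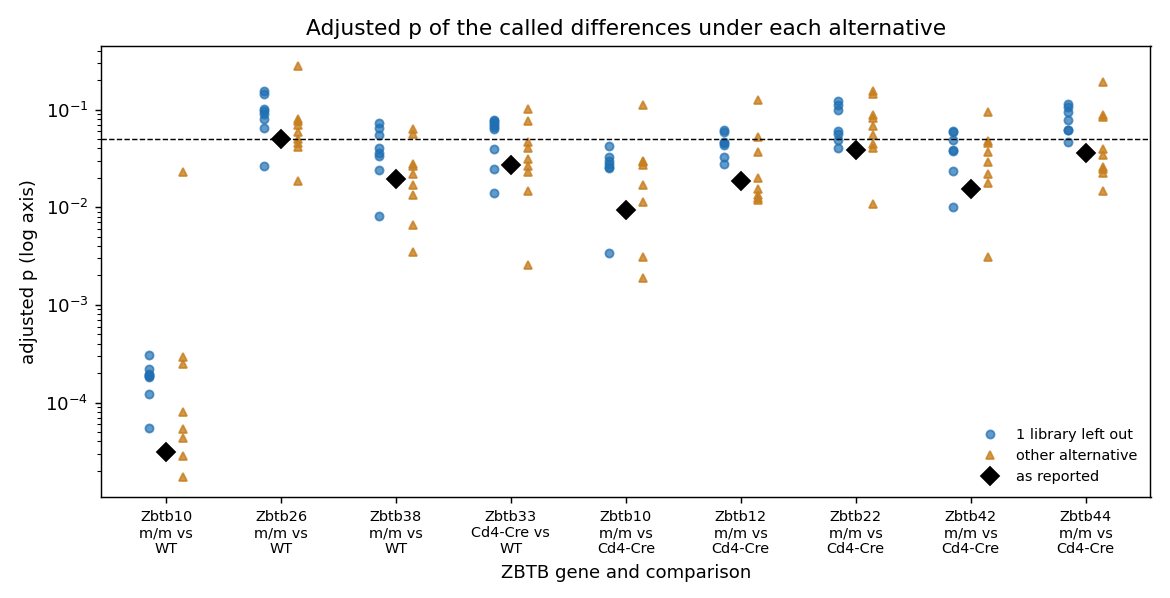
Adjusted p (log axis) of the 9 called differences as reported (black diamonds), with 1 library left out (blue circles) and under every other alternative tried (orange triangles), with 0.05 as a dashed line. Zbtb26 sits on the line at 0.0494, and its points lie on both sides of it. Zbtb10 was tested only through its Bcl11bm/m values, so its low points are no support.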

How the data were processed

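The authors mapped the RNA-seq reads with tophat2 and deposited, for each library, cufflinks FPKM estimates made with the iGenome annotation. The submitters' processing notes name TopHat2 2.8.0, Cufflinks 2.1.1 and mm9. The deposited FPKM values carry no stated scaling between libraries and no read numbers. The members and the gene lists were chosen with earlier results of these data known. A gene of the co-repressor list and a gene of the post-selection list are not reported here, and the counts of these lists leave them out. Every member that passed the filter is named by rule, with values in each library for those called.

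Values were taken as log2(FPKM + 1), which understates the change of low genes. The 10780 features that averaged 1 FPKM or more across the 12 libraries were compared by limma 3.58.1 under R 4.3.3 (lmFit and eBayes, trend on). Each fit held only the groups it compared, tests were two-sided, and p-values were adjusted by Benjamini-Hochberg over all features, with 0.05 as threshold. The procedure was tested on simulated data. The alternatives were library weights, a replicate block, 1 fit of all 3 groups, quantile normalization or median-ratio scaling, a filter at 5 FPKM or none, a pseudocount of 0.1, leaving out each library and, chosen after the data were seen, Xist (at least 1 FPKM or not) as a covariate. Other steps ran in Python 3.11.15 (pandas 2.3.3, numpy 2.4.6, matplotlib 3.10.9).

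Depth was estimated from the steps between low FPKM values of genes with a single transcript, of which 64.1 to 72.2% lay within 0.1 of a whole multiple of a step, against 20% if spread evenly. Fragment numbers are estimates and cover counting error only. Gene positions come from GENCODE vM1 on NCBIM37 (mm9). Zbtb11 did not match there, and Zbtb20 matched more than a single entry. Promoters were taken from a RefSeq table of GRCm38.p6, in which 31 of the 35 members were matched by symbol, all but Zbtb7c, Zbtb10, Zbtb40 and Zbtb48.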

Additional observations from a re-analysis of the deposited data

Results flagged for a closer look

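Within a group of 4 or 5 libraries, a library far from the others by Dixon's test was found in 5 of 60 sets of values (30 members in wild-type and in Bcl11bfl/fl:Cd4-Cre), where chance gives about 1 in 20. All 5 were wild-type. Replicate 3 was highest for Zbtb1, at 30.4 FPKM, and for Zbtb6, at 15.1 FPKM. Replicate 2 was highest for Zbtb26, at 5.71 FPKM. Replicate 1 was highest for Zbtb40, at 6.37 FPKM, and lowest for Zbtb42, at 0.833 FPKM.

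The Bcl11bm/m and Bcl11bfl/fl:Cd4-Cre libraries, which also differ in depth, differed for 5 of 30 members in the direct test, beside 10.2% of all features. Without Bcl11bm/m replicate 2 or 3 the single member called was Zbtb10, which was tested only through its Bcl11bm/m values, and 327 and 313 of all features were called in place of 1102. The differences on the log2(FPKM + 1) scale, Bcl11bm/m minus Bcl11bfl/fl:Cd4-Cre, were 1.30 for Zbtb10, 1.04 for Zbtb42, 0.61 for Zbtb22, -0.39 for Zbtb44 and -0.81 for Zbtb12.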

How the results depend on the processing

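The direction of the 9 called differences held in all alternatives tried. Of the members called against wild-type, Zbtb38 was called in 12 of 17 alternatives, Zbtb26 in 4 of 17 and Zbtb33 in 10 of 18. Zbtb10 passed the filter only through its Bcl11bm/m values, so its calls under the alternatives say nothing about stability. Of those called between the mutants, Zbtb42 was called in 12 of 15 alternatives, Zbtb12 in 11 of 15, Zbtb44 in 7 of 16 and Zbtb22 in 5 of 16. Against wild-type, the count of members called in Bcl11bm/m was 3 and became 1 without a filter, 5 with median-ratio scaling, 5 with quantile normalization and 6 with library weights, while calls over all features went from 1866 to 1500, 2382, 2475 and 3604. It was 1 to 4 with a library left out, with 1021 to 2349 of all features called. In Bcl11bfl/fl:Cd4-Cre the count was 1 and became 2 with quantile normalization and 5 with library weights (1907 and 3176 over all features, from 1564). It was 0 to 4 with a library left out, with 700 to 2678 of all features called. With median-ratio scaling it was again 1, but the member was Zbtb24. Between the mutants the count was 5, against 3 without a filter and 2 at a mean of at least 5 FPKM (22 members tested). It was 10 with library weights and 3 with Xist as a covariate. Over all features these settings gave, in that order, 761, 656, 2173 and 534 calls in place of 1102. With a library left out the count of members was 1 to 5, with 313 to 1121 of all features called. The count of members expressed in wild-type was 29, and 19 when at least 5 FPKM was required. The causes of these changes were not tested, except that higher means left fewer members.

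Replicate numbers did not pair the libraries, with correlations of -0.211 to 0.152 between same-numbered libraries, and libraries shared a best match with their own number in 2 of 10 cases. With the replicate number as a block, 1, 0 and 0 members were called in the 3 comparisons, and 283, 456 and 30 of all features in place of 1866, 1564 and 1102.

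With 3 to 5 libraries a group and an estimated 2720000 to 6930000 fragments in the wild-type and Bcl11bm/m libraries, members near 1 FPKM rest on few fragments.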
